A study of Homo sapiens with 60 samples.

Results

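Cadmium and mercury were compared directly after 24 h of treatment, using the 3 libraries of cells treated with cadmium and the 3 libraries of cells treated with mercury, 6 of the 60 libraries of the series. The cells were 1321N1, an astrocyte-derived line from a human astrocytoma, grown in full medium and given 2.3 µM cadmium chloride or 20 µM mercury chloride. Both doses were set by the study to leave the same share of cells dead after 48 h, so that metal and molar dose cannot be told apart in any difference below. The 3 non-treated libraries of 24 h serve as a reference, and the design text calls the 3 libraries of a group technical triplicates, so that p-values measure only the spread between these libraries. Reads were counted per gene from the 3′ end of polyadenylated RNA, and levels are given as CPM, counts scaled to a common normalized library size. In bulk RNA, a changed make-up of the culture and a changed level within cells cannot be told apart. LFC is the log2 ratio of cadmium over mercury unless another pair is named, so that positive values lie higher with cadmium and negative values higher with mercury.

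Cadmium and mercury both bind thiols, and cells answer such metals through several well-known programs. The zinc-sensing factor MTF1 drives the metallothioneins, small cysteine-rich proteins that hold metal ions, and the zinc exporter SLC30A1. HSF1 drives chaperones for misfolded proteins, NRF2 drives glutathione, thioredoxin, and heme-degrading enzymes, and ATF4 drives amino acid synthesis and uptake when the integrated stress response slows translation.

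The 6 libraries held 2912801 to 4404609 counts (median 3259646.5) and 15663 to 16528 detected genes, and 3 counts corresponded to 0.682 to 1.08 CPM. The defining astrocyte genes GFAP, AQP4, and ALDH1L1 had 0 counts in these and the 3 non-treated libraries, whereas VIM, SOX9, NFIA, and CD44 were detected, and 7 of 14 astrocyte markers were tested. Of these, only GJA1 differed between the metals (LFC 0.66, adjusted p = 0.0224). None of 7 markers of microglia and blood reached the count filter, with at most 5 counts in a library. Cadmium replicate 3 stood apart from the other cadmium libraries. Over genes, the chi-square per degree of freedom was 7.92 and 9.35 between it and cadmium replicates 1 and 2, against 2.73 between those replicates and 2.65 to 3.14 among the mercury libraries. Main counts that moved by more than 1.5 times without it or another library are given beside the result. It also had the fewest counts of the 6 libraries.

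Of 12341 genes tested, 1197 were higher with cadmium (9.7%) and 1275 higher with mercury (10.3%) at an adjusted p under 0.05 in edgeR's quasi-likelihood test. Genes that also had an LFC above 1 or below -1 are called differentially expressed, and they numbered 202 higher with cadmium (1.64%) and 338 higher with mercury (2.74%). The median LFC over all genes tested was 0.0014. Without cadmium replicate 3, 722 and 942 genes passed, and 141 and 273 were differentially expressed, of which 129 and 228 were among the genes above. Of these 540 genes, 407 still had an adjusted p under 0.05 without it. All kept their direction, which their choice from the same libraries favours.

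**Figure D1:**
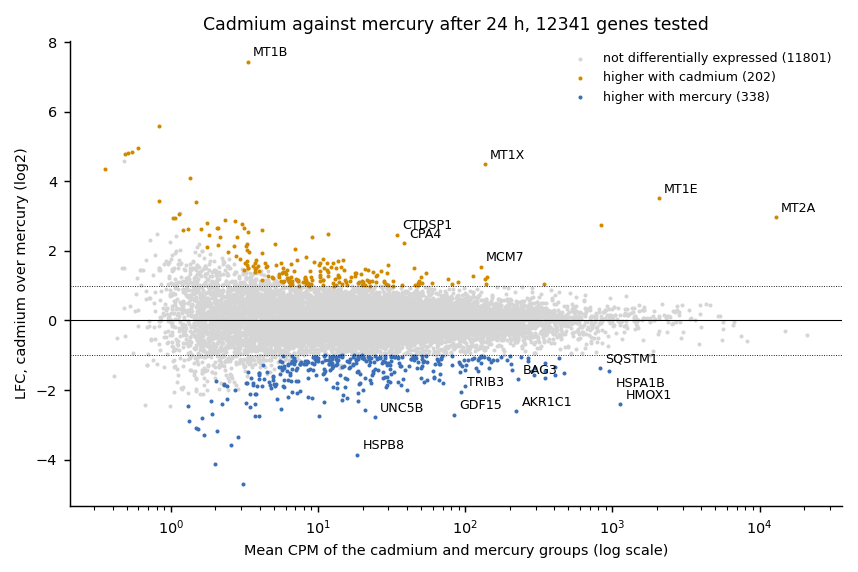
LFC of cadmium over mercury at 24 h (log2) against the mean CPM of both groups (log scale), for each of 12341 genes tested. Orange and blue points are the 202 and 338 differentially expressed genes, dotted lines mark an LFC of 1 and -1, and MT1X, MT1E, and MT2A lie far above the other genes of their level, apart from ENSG00000289942. MT1B is drawn at its fitted LFC, which rests on 0 counts with mercury.

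The position of the non-treated mean shows which metal moved away from it. Of the 338 genes higher with mercury, the non-treated mean lay below both metals for 198, between them for 139, and above both for 1, and it was nearer to cadmium for 309. Of the 202 genes higher with cadmium, it lay above both metals for 88, between them for 107, and below both for 7, and it was nearer to cadmium for 183. For most genes in both directions, the mercury mean thus lay further from the non-treated mean than the cadmium mean did. MT1X, MT1E, and MT2A were exceptions, with both metals above non-treated cells and cadmium further away. The 3 cadmium values did not overlap the 3 mercury values for 183 of the 202 and 329 of the 338 genes, which the choice by p and LFC favours. The share over all genes tested is not given, so these counts only describe the chosen genes.

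Metallothioneins were far higher with cadmium than with mercury. Of 12 members, 4 had enough counts to be tested, and all 4 were higher with cadmium, with a median LFC of 4.0, or 3.24 with MT1B at its lower bound, against 0.0014 for all genes. MT1X, on chromosome 16 of GRCh38 (chr16:56682470-56684196), had 269.1, 242.8, and 264.8 CPM in the 3 cadmium libraries and 8.81, 9.61, and 16.2 CPM in the 3 mercury libraries. The groups lay far apart, and the mercury values were near the 9.53, 6.76, and 4.91 CPM of the non-treated libraries. The LFC was 4.49 (SE 0.18, adjusted p = 1.59e-30). MT1E (chr16:56625475-56627112) had 3773, 3943, and 3676 CPM with cadmium and 327.0, 342.8, and 325.8 CPM with mercury, and 157.6, 160.8, and 174.0 CPM without treatment. Every mercury library thus lay above every non-treated library and more than an order of magnitude below cadmium, with an LFC of 3.52 (SE 0.11, adjusted p = 6.27e-37). MT2A (chr16:56608584-56609497) had 21585, 22088, and 24943 CPM with cadmium, 2824, 2915, and 3028 CPM with mercury, and 1852, 1759, and 1650 CPM without treatment. Its LFC of 2.97 (SE 0.20, adjusted p = 2.16e-19) was the smallest of these 3, and its groups were equally well separated.

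MT1B (chr16:56651886-56653204) was found with cadmium only, at 4.09, 7.16, and 8.62 CPM, and had 0 counts in the mercury and non-treated libraries. Against the floor of 3 counts in a mercury library, it was at least 6.68-fold higher with cadmium (adjusted p = 1.51e-05). The other 8 metallothioneins did not pass the filter on low counts. MT1G reached 10 counts in a library, MT1H and MT3 reached 2, and MT1A, MT1F, MT1HL1, MT1M, and MT4 had 0 counts in all 9 libraries. As for sequence shared at the 3′ end, 34.7% of the 50-base windows in the final 400 bases of MT1X recur at the 3′ end of another gene, and 18.4% of those of MT1B. For MT1X, the genes include MT1G, MT2A, and ENSG00000259827. For MT1B, the gene is ENSG00000259923, so that reads of MT1X and MT1B are each partly uncertain. An unnamed long non-coding gene, ENSG00000289942 on chromosome 4 (chr4:68376551-68376665), moved like a metallothionein, with 1391, 1434, and 1505 CPM with cadmium, 213.7, 231.5, and 206.5 CPM with mercury, and an LFC of 2.73 (SE 0.14, adjusted p = 7.29e-26). Its transcript of 115 bases matches MT2A at 97 of 99 aligned bases (98.0%), and whether its reads came from MT2A was not tested.

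The promoters of the tested metallothioneins in the RefSeq table (GRCh38.p14, 250 bases before to 50 after the start of the gene) are shown because these genes carry the largest difference between the metals. Capitals mark the core of the metal response element, the sequence bound by MTF1, searched as TGCACNC and TGCGCNC on both strands. MT1E was missing from the table.

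MT1X (chr16:56682220-56682519, plus strand): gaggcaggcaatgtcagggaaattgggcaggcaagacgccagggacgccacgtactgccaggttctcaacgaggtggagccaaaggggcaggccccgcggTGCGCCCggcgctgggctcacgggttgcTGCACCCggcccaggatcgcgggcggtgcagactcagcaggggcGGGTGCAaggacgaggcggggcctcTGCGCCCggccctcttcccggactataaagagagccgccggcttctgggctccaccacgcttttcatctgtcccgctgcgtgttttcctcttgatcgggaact
MT2A (chr16:56608334-56608633, plus strand): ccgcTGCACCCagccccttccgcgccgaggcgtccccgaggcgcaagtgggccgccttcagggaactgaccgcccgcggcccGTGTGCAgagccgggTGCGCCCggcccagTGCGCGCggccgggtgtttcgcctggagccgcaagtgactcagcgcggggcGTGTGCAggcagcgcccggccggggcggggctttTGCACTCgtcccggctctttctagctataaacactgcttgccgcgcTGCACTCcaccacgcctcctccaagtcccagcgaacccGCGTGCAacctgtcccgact
MT1B (chr16:56651636-56651935, plus strand): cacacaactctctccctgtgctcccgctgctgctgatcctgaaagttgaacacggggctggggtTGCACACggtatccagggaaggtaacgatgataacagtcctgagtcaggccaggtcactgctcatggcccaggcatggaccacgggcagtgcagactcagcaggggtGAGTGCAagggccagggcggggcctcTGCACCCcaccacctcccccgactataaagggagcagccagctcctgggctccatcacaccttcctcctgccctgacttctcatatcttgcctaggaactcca
SLC30A1 (chr1:211579112-211579411, minus strand): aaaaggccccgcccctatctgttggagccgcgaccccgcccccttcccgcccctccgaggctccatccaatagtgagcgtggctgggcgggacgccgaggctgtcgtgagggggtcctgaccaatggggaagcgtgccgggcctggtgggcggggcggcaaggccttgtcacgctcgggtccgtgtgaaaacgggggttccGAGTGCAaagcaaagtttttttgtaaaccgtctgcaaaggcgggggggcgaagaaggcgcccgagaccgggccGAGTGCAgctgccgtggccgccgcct

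The core was found at 4 places in MT1X, 8 in MT2A, 3 in MT1B, and 2 in SLC30A1, and not in the window of SLC39A10. That window (chr2:195656708-195657007) lies within the counted gene, which starts at 195575977, and other starts were not searched. The core is short, and 29.3% of 27305 promoters and 39.4% of the 9445 promoters of tested genes hold it at least at 1 place. A match is thus a description and not a site.

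Zinc transporters differed less than the metallothioneins. SLC30A1, which exports zinc, had 163.4, 146.6, and 127.9 CPM with cadmium, 104.2, 87.4, and 86.9 CPM with mercury, and 42.2, 37.5, and 44.1 CPM without treatment. All cadmium values lay above all mercury values, and these above the non-treated values, with an LFC of 0.66 (SE 0.12, adjusted p = 4e-05) between the metals. Of the other exporters tested, SLC30A7 was lower with cadmium (LFC -0.64, adjusted p = 0.0167), which without cadmium replicate 3 was -0.53 (adjusted p = 0.108), and the call also ended without mercury replicate 1 or 2. The remaining 4 of 6 did not pass, with SLC30A6 at -0.39 (adjusted p = 0.11). Among the 6 exporters tested, 2 differed, and among 10 importers tested, 3 differed, against 20% of all genes. SLC39A10, an importer, had 12.3, 10.3, and 10.4 CPM with cadmium and 16.1, 26.7, and 18.8 CPM with mercury, an LFC of -0.89 (SE 0.28, adjusted p = 0.0176) that became -0.86 (adjusted p = 0.0591) without cadmium replicate 3 and -0.66 (adjusted p = 0.161) without mercury replicate 2. Its call also ended without cadmium replicate 2. SLC39A14, an importer of zinc, iron, and manganese, had 78.2, 83.0, and 35.6 CPM with cadmium and 122.4, 124.9, and 119.3 CPM with mercury. The low value of cadmium replicate 3 moved the LFC from -0.60 without it (adjusted p = 0.00232) to -0.88 with it. SLC39A13, which releases zinc from intracellular stores, was higher with cadmium (LFC 0.87, adjusted p = 0.00703), at 0.64 (adjusted p = 0.101) without mercury replicate 2.

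**Figure D2:**
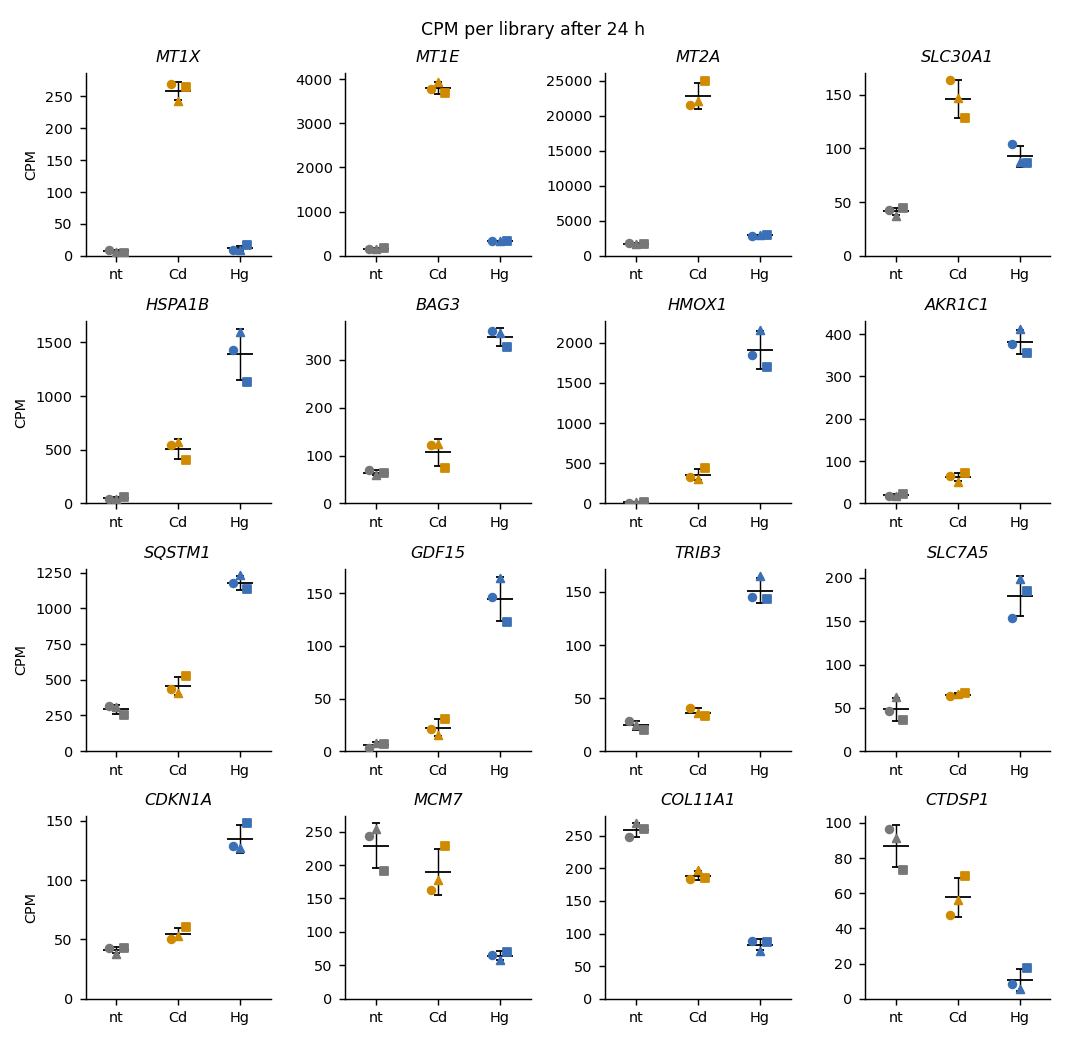
CPM in each library after 24 h for 16 genes, with a linear axis from 0 in each panel, for non-treated cells (nt, grey), cadmium (Cd, orange), and mercury (Hg, blue). Circles, triangles, and squares are replicates 1, 2, and 3, and black lines are the mean ± SD (n = 3). The 3 cadmium values lie apart from the 3 mercury values in all 16 panels.

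Most heat-shock genes were higher with mercury. Of 35 tested, 26 were higher with mercury and 0 with cadmium, against 10.3% and 9.7% of all genes. Differentially expressed were 5 of the 26, against 2.74% of all genes, and the list had a median LFC of -0.57. Without cadmium replicate 3, 25 were higher with mercury and the median was -0.55. Against non-treated cells, the median LFC was 0.35 with cadmium and 0.92 with mercury. HSPB8, a small chaperone that works with BAG3 in the autophagy of misfolded proteins, had 1.82, 3.72, and 1.44 CPM with cadmium and 60.1, 34.1, and 8.92 CPM with mercury. Its mercury values spread widely but did not reach those of cadmium, and the LFC of -3.86 has an SE of 0.73 (adjusted p = 4.96e-05). BAG3, its co-chaperone (chr10:119651380-119677819), had 122.7, 123.7, and 74.0 CPM with cadmium, 360.4, 354.8, and 326.8 CPM with mercury, and 69.0, 58.7, and 62.9 CPM without treatment. Cadmium replicate 3 was close to the non-treated level and the other cadmium libraries were above it, and all lay well below mercury (LFC -1.69, SE 0.12, adjusted p = 1.31e-17).

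HSPA1B, an inducible chaperone of the HSP70 family, had 546.8, 572.6, and 404.2 CPM with cadmium and 1430, 1597, and 1136 CPM with mercury, both far above the 45.8, 40.0, and 63.5 CPM of non-treated cells. Its LFC was -1.45 (SE 0.14, adjusted p = 6.09e-13). Its near-identical neighbor HSPA1A had an LFC of -0.20 (adjusted p = 0.328). DNAJB6 and CHORDC1, co-chaperones of HSP70 and HSP90, were the other differentially expressed members, at -1.09 and -1.02. The constitutive chaperones HSPA8, HSP90AB1, and HSPD1 had smaller differences of -0.64, -0.56, and -0.72. Summed over the list, heat-shock genes made up 32404 to 35477 CPM with cadmium, 46553 to 48667 with mercury, and 22726 to 24627 without treatment, so that the ranges did not overlap.

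The promoters of HSPB8 and HSPA1B are shown as the members with the largest differences that hold the core of the heat-shock element, searched as GAANNTTC on both strands and set in capitals. BAG3 held 0 matches in its window. The HSPB8 window lies within the counted gene, which starts at 119171555, and other starts were not searched.

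HSPB8 (chr12:119178681-119178980, plus strand): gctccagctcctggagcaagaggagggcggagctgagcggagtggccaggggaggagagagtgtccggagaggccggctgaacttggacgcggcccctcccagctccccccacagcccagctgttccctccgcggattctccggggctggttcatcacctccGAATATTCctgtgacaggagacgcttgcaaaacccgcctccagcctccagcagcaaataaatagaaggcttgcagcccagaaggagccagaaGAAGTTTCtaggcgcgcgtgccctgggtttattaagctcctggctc
HSPA1B (chr6:31827488-31827787, plus strand): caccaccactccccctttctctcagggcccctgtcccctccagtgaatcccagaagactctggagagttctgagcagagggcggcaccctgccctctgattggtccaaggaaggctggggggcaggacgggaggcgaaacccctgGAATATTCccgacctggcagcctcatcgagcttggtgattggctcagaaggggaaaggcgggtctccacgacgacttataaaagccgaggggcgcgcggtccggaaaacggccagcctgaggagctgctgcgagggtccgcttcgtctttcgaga

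This core was found in 12 of 31 promoters of tested heat-shock genes (38.7%), in 4.7% of the promoters of all tested genes, and in 6.9% of all promoters in the table.

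Proteasome subunits and ubiquitin and autophagy genes leaned the same way by less. Of 32 proteasome subunits tested, 16 were higher with mercury and 0 with cadmium, against 10.3% and 9.7% of all genes. Their median LFC was -0.27, with no LFC beyond 1. The count with mercury was 17 without cadmium replicate 3. The lowest p-values were those of PSMA1, a core subunit, at -0.66 (SE 0.11, adjusted p = 5.14e-06), PSMC2, an ATPase of the regulatory particle, at -0.55 (adjusted p = 4.8e-05), and PSMD3, a lid subunit, at -0.57 (adjusted p = 8.1e-05). Of 21 ubiquitin and autophagy genes, 12 were higher with mercury and 0 with cadmium, against the same shares of all genes. Differentially expressed were 4 of the 12, against 2.74% of all genes. The count of 12 was 8 without cadmium replicate 3, although the median was -0.48 against -0.47 with it. SQSTM1, the autophagy receptor p62, had 435.0, 409.2, and 526.7 CPM with cadmium, 1177, 1230, and 1133 CPM with mercury, and 314.2, 307.4, and 255.1 CPM without treatment. Its groups did not overlap, with an LFC of -1.37 (SE 0.09, adjusted p = 4.1e-20). GABARAPL1, which coats autophagosomes, had 6.14, 8.30, and 9.70 CPM with cadmium and 27.1, 28.8, and 40.0 CPM with mercury, an LFC of -2.0 (SE 0.38, adjusted p = 4.73e-05). MAP1LC3B2, at low counts, had an LFC of -1.45 (adjusted p = 0.031) that was -1.15 (adjusted p = 0.163) without cadmium replicate 3, and the call also ended without mercury replicate 1 or 2.

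NRF2 targets had the largest share of passing members among the lists with more than 20 tested. Of 36, 28 were higher with mercury and 0 with cadmium, against 10.3% and 9.7% of all genes. Differentially expressed toward mercury were 11 of the 36, against 2.74% of all genes, and the median LFC was -0.82. When cadmium replicate 3 was left out, 26 were higher with mercury and the median was -0.81. The median LFC against non-treated cells was 0.34 with cadmium and 1.16 with mercury. HMOX1, which degrades heme (chr22:35380361-35394214), had 324.3, 310.1, and 442.3 CPM with cadmium, 1852, 2164, and 1700 CPM with mercury, and 10.3, 15.7, and 13.0 CPM without treatment. Both metals thus lay far above non-treated cells, with LFCs of 4.79 and 7.21, and the direct LFC was -2.41 (SE 0.13, adjusted p = 1.08e-23). AKR1C1, an aldo-keto reductase (chr10:4963253-4983283), had 64.5, 51.0, and 71.1 CPM with cadmium, 376.4, 411.6, and 354.5 CPM with mercury, and 17.0, 17.5, and 21.9 CPM without treatment. Its LFC was -2.62 (SE 0.13, adjusted p = 2.96e-25), and that of its paralog AKR1C2 was -2.59 (SE 0.38, adjusted p = 2.12e-07). Of the 3′ end stretches of AKR1C1, 31.4% also occur in another gene, and 14.1% for AKR1C2, so that their reads are partly uncertain.

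Other members of the list differed by less. SLC7A11, the cystine importer, GCLM, the modifier subunit of glutamate-cysteine ligase, and TXNRD1, thioredoxin reductase, had LFCs of -1.66, -1.44, and -1.57, whereas the ferritin chains FTH1 and FTL and the quinone reductase NQO1 were at -0.99, -0.88, and -0.73. The gene for NRF2 itself, NFE2L2, had an LFC of -0.79 (adjusted p = 1.04e-05). GLRX, a glutathione-dependent thiol reductase outside this list, had 18.2, 20.3, and 8.98 CPM with cadmium and 60.7, 61.1, and 71.7 CPM with mercury, an LFC of -2.0 (SE 0.23, adjusted p = 3.94e-10). The core TGACNNNGC of the antioxidant response element was found in 8 of 28 promoters of tested NRF2 targets (28.6%), in 15.2% of the promoters of tested genes, and in 13.6% of all promoters. HMOX1 was missing from the table.

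Selenoproteins are proteins that carry selenocysteine, many of them redox enzymes. Of 19 tested genes of selenoproteins and their synthesis, 4 were higher with cadmium and 2 with mercury, against 9.7% and 10.3% of all genes, with a median LFC of -0.10. The mercury count was 1 without cadmium replicate 3 and 4 without cadmium replicate 1. SELENOT, a thioredoxin-like protein of the endoplasmic reticulum, had 64.8, 81.9, and 68.6 CPM with cadmium, 47.5, 40.9, and 38.3 CPM with mercury, and 70.3, 72.2, and 87.7 CPM without treatment. The cadmium values were near those of non-treated cells and the mercury values below them (LFC 0.76, SE 0.14, adjusted p = 2.26e-05). GPX4, which reduces lipid peroxides, had 101.6, 96.5, and 89.8 CPM with cadmium, 64.2, 53.3, and 74.3 CPM with mercury, and 119.2, 109.1, and 118.0 CPM without treatment, with an LFC of 0.59 (SE 0.14, adjusted p = 0.00124). SELENOS was higher with mercury at -0.46 (adjusted p = 0.00188), which was -0.33 (adjusted p = 0.0537) without cadmium replicate 3.

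Targets of ATF4 had the most negative median of all lists, -1.15. Of 32 tested, 24 were higher with mercury and 0 with cadmium, against 10.3% and 9.7% of all genes. Differentially expressed toward mercury were 19, against 2.74% of all genes. Without cadmium replicate 3, 25 were higher with mercury and 20 differentially expressed. The median LFC against non-treated cells was 0.25 with cadmium and 1.50 with mercury. GDF15, a secreted stress cytokine, had 20.9, 15.2, and 30.9 CPM with cadmium, 146.3, 164.6, and 122.9 CPM with mercury, and 3.09, 7.69, and 6.92 CPM without treatment. Its groups were well separated (LFC -2.71, SE 0.23, adjusted p = 2.34e-15). CTH, which makes cysteine from cystathionine, had 6.14, 6.30, and 6.11 CPM with cadmium and 31.8, 34.7, and 27.1 CPM with mercury, an LFC of -2.33 (SE 0.30, adjusted p = 8.05e-09). ALDH1L2, a mitochondrial folate enzyme, had 7.50, 2.86, and 3.95 CPM with cadmium and 23.0, 24.8, and 24.8 CPM with mercury, and 9.79, 2.46, and 5.77 CPM without treatment. Its cadmium values lay within the non-treated range (LFC -2.29, SE 0.35, adjusted p = 6.62e-07 between the metals).

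CHAC1, which degrades glutathione, had 6.82, 6.30, and 8.26 CPM with cadmium and 28.0, 33.5, and 29.1 CPM with mercury, an LFC of -2.09 (SE 0.29, adjusted p = 8.15e-08). TRIB3, a pseudokinase induced by ATF4, had 40.7, 35.5, and 32.7 CPM with cadmium and 145.1, 164.9, and 143.4 CPM with mercury, an LFC of -2.05 (SE 0.17, adjusted p = 1.3e-15). The serine and folate enzymes PHGDH, PSAT1, and MTHFD2 had LFCs of -1.16, -1.34, and -1.57, the transcription factors ATF3, DDIT3, and ATF4 itself -1.62, -1.07, and -0.95. PSPH, SHMT2, and PYCR1, enzymes of serine and proline synthesis, did not pass, at 0.08, -0.31, and -0.10. The core TGATGNAA of the C/EBP-ATF response element, at which ATF4 pairs with C/EBP factors, was found in 3 of 25 promoters of tested members (12.0%), in 1.6% of the promoters of tested genes, and in 3.7% of all promoters. Of the promoters of CHAC1, TRIB3, GDF15, and CTH, that of CHAC1 (chr15:40953221-40953520, plus strand) held it.

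CHAC1: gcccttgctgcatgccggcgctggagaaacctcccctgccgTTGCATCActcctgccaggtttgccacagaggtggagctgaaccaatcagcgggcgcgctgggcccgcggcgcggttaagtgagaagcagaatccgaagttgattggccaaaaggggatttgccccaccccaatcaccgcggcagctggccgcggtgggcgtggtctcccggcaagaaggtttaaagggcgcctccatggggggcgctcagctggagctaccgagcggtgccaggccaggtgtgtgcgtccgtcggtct

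Amino acid transporters and tRNA synthetases, some of which ATF4 also induces, are described next. Of 19 transporters tested, 12 were higher with mercury and 0 with cadmium, against 10.3% and 9.7% of all genes. Differentially expressed were 7 of the 12, against 2.74% of all genes, and the list had a median LFC of -0.94. The count of 12 was 9 without cadmium replicate 3. SLC6A9, a glycine transporter, had 15.2, 12.0, and 10.4 CPM with cadmium and 55.4, 42.8, and 41.0 CPM with mercury (LFC -1.86, SE 0.22, adjusted p = 6.31e-10). SLC7A5, which imports large neutral amino acids, had 63.2, 65.9, and 66.8 CPM with cadmium and 154.2, 199.3, and 185.0 CPM with mercury, the cadmium values being close together and the groups far apart (LFC -1.46, SE 0.15, adjusted p = 1.29e-11). SLC43A1, another carrier of large neutral amino acids, was at -1.45 (SE 0.33, adjusted p = 0.00069). Of 20 cytosolic tRNA synthetases, 10 were higher with mercury and 5 with cadmium, against 10.3% and 9.7% of all genes. These counts were 9 and 3 without cadmium replicate 3. GARS1 for glycine, CARS1 for cysteine, and EPRS1 for glutamate and proline were higher with mercury, at -1.03, -0.88, and -0.66 (adjusted p = 1.45e-12, 2.86e-10, and 2.82e-09). FARSA and FARSB, the subunits of the phenylalanine enzyme, and QARS1 for glutamine were higher with cadmium, at 0.68, 0.68, and 0.64.

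Genes of the endoplasmic reticulum fold secreted proteins and dispose of misfolded ones. Of 30 chaperones and genes of the unfolded protein response, 5 were higher with cadmium and 5 with mercury, and 20 did not pass, with a median LFC of -0.09, against 9.7% and 10.3% of all genes. The counts were 3 and 4 without cadmium replicate 3, 3 with cadmium without mercury replicate 3, and 8 and 3 with mercury without cadmium replicate 2 and mercury replicate 2. DNAJB9, a co-chaperone, had 14.8, 16.0, and 8.62 CPM with cadmium and 33.4, 39.7, and 32.4 CPM with mercury (LFC -1.39, SE 0.23, adjusted p = 4.43e-06). HERPUD1, which takes part in the disposal of misfolded proteins, had 38.6, 46.1, and 35.2 CPM with cadmium and 92.8, 108.5, and 83.9 CPM with mercury (LFC -1.25, SE 0.14, adjusted p = 1.61e-10). EDEM2, of the same pathway, was at -1.40 (adjusted p = 0.0065) on low counts, and at -1.13 (adjusted p = 0.0724) without mercury replicate 2. The chaperones CALR, SDF2L1, and CRELD2 were higher with cadmium, at 0.37, 0.55, and 0.61, and HSPA5, the main chaperone, by 0.20.

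Immediate-early genes, which respond to growth factor and stress kinases, were mostly higher with mercury. Of 33 tested, 18 were higher with mercury and 3 with cadmium, against 10.3% and 9.7% of all genes. Differentially expressed were 11 of the 18, against 2.74% of all genes. The median LFC was -0.62, and the count of 18 fell to 12 without cadmium replicate 3. Some feedback inhibitors of the MAP kinase ERK stood among the genes higher with mercury, but their families were not uniform. Of 16 dual-specificity phosphatases (DUSP) tested, 5 were higher with mercury and 1 with cadmium, with a median LFC of -0.12. Of 5 genes of the SPRY and SPRED families, 3 were higher with mercury and 0 with cadmium. DUSP7 was at 0.09 (adjusted p = 0.80 in edgeR). DUSP5, an ERK phosphatase, had 37.7, 22.6, and 32.0 CPM with cadmium and 91.0, 106.6, and 108.4 CPM with mercury, an LFC of -1.72 (SE 0.18, adjusted p = 1.29e-11). DUSP4 and DUSP6 had LFCs of -1.44 and -1.04. SPRY4, an inhibitor of receptor signaling, had 1.36, 4.87, and 3.59 CPM with cadmium and 22.7, 11.8, and 10.2 CPM with mercury, an LFC of -2.22 (SE 0.45, adjusted p = 0.000149). FOS had 2.27, 3.15, and 1.08 CPM with cadmium and 15.4, 12.7, and 2.64 CPM with mercury, where mercury replicate 3 lay within the range of cadmium, with an LFC of -2.20 (adjusted p = 0.02). The call ended without cadmium replicate 1 or 3 or mercury replicate 1 or 2, at LFCs from -2.23 to -1.79 (adjusted p up to 0.131). ZFP36, which destabilizes mRNA, had 3.41, 5.15, and 0 CPM with cadmium and 17.0, 14.6, and 5.29 CPM with mercury. Its LFC was -2.03 (adjusted p = 0.0279), and -1.53 (adjusted p = 0.155) without cadmium replicate 3. The call also ended without cadmium replicate 1 or mercury replicate 1 or 2, and in DESeq2 (adjusted p = 0.0927). JUND, KLF6, and FOSL2 were higher with cadmium, at 0.58, 0.54, and 0.44.

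Of 15 NF-kB feedback and cytokine genes tested, 3 were higher with mercury (1 without mercury replicate 1) and 1 with cadmium (2 without cadmium replicate 1 or 2), with a median LFC of -0.46. The shares of all genes were 10.3% and 9.7%. BIRC3, an inhibitor of apoptosis, had 34.1, 31.5, and 29.5 CPM with cadmium, 15.1, 10.5, and 18.2 CPM with mercury, and a mean of 38.9 CPM without treatment. It was thus lower with mercury than with cadmium, and below the non-treated mean with both (LFC 1.13, SE 0.18, adjusted p = 2.65e-06). IRF1, a transcription factor of the interferon response, was higher with mercury at -0.76 (adjusted p = 0.00159), and the chemokine CXCL3, at most 6.20 CPM in any of the 6 libraries, at -2.10 (adjusted p = 0.0219). The call for CXCL3 ended without mercury replicate 1 or 2 or cadmium replicate 2, at -1.54 (adjusted p = 0.142) in the last case, and its adjusted p was 0.05 without cadmium replicate 3.

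Of 24 p53 targets, 6 were higher with mercury and 3 with cadmium (6 and 1 without cadmium replicate 3), with a median LFC of -0.08. The shares of all genes were 10.3% and 9.7%. CDKN1A, the cell cycle inhibitor p21, had 50.7, 52.7, and 60.7 CPM with cadmium, 128.4, 127.1, and 148.4 CPM with mercury, and 42.5, 38.1, and 42.4 CPM without treatment (LFC -1.30, SE 0.15, adjusted p = 3.09e-10). The proapoptotic genes PMAIP1 and TNFRSF10B were also higher with mercury, at -1.13 (SE 0.11, adjusted p = 4.66e-12) and -1.11 (SE 0.14, adjusted p = 6.47e-09). MDM2 and BAX did not pass, at -0.13 and 0.14.

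Of 29 hypoxia and glycolysis genes, 11 were higher with mercury and 4 with cadmium, the latter 2 without cadmium replicate 1, mercury replicate 1, or mercury replicate 3, with a median LFC of -0.32. The shares of all genes were 10.3% and 9.7%. VEGFA, a growth factor for blood vessels, had 13.4, 19.2, and 15.1 CPM with cadmium, 58.9, 54.5, and 57.2 CPM with mercury, and 9.53, 10.5, and 6.64 CPM without treatment (LFC -1.84, SE 0.24, adjusted p = 1.61e-08). NDRG1 and the histone demethylase KDM3A were at -1.91 (adjusted p = 0.000124) and -1.32 (adjusted p = 5.59e-08). The enzymes of glycolysis did not share this direction. LDHA and PFKL were higher with cadmium, at 0.43 and 0.86, HK2 and PGK1 higher with mercury, at -0.71 and -0.46, and GAPDH, ENO1, and PKM did not pass, at 0.26, 0.23, and 0.07.

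Cell cycle genes were examined as G2 and mitosis genes and as DNA replication genes. Of 39 G2 and mitosis genes, 16 were higher with cadmium and 1 with mercury, against 9.7% and 10.3% of all genes. Their median LFC was 0.24, and both counts were the same without cadmium replicate 3. Against non-treated cells, the median was -0.21 with cadmium and -0.49 with mercury. CDC20, an activator of the anaphase-promoting complex, had 172.0, 179.2, and 205.5 CPM with cadmium, 91.3, 84.6, and 93.8 CPM with mercury, and 180.3, 175.8, and 188.7 CPM without treatment. The cadmium values lay around the non-treated values, and the mercury values below them (LFC 1.04, SE 0.11, adjusted p = 2.77e-11). The proliferation marker MKI67 and the topoisomerase TOP2A had LFCs of 0.69 (SE 0.11, adjusted p = 4.1e-06) and 0.46 (SE 0.08, adjusted p = 4.69e-06).

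Of 39 DNA replication genes, 2 were higher with cadmium and 3 with mercury (median LFC 0.13), against 9.7% and 10.3% of all genes. The count with cadmium was 4 without cadmium replicate 2 and 1 without mercury replicate 1. MCM7, a subunit of the replicative helicase, stood out, with 163.2, 177.5, and 228.2 CPM with cadmium, 66.1, 57.6, and 70.0 CPM with mercury, and 242.9, 253.6, and 190.4 CPM without treatment, an LFC of 1.55 (SE 0.14, adjusted p = 9.24e-14). The other helicase subunits MCM2, MCM3, MCM4, and MCM6 did not pass, at -0.04, 0.01, 0.20, and 0.09, and MCM5 was at 0.60. CDC6, which loads the helicase, and RRM2, a subunit of ribonucleotide reductase, were higher with mercury, at -0.84 (adjusted p = 3.82e-09) and -0.41 (adjusted p = 3.95e-05).

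Of 31 genes of cholesterol and fatty acid synthesis, 13 were higher with cadmium and 0 with mercury, against 9.7% and 10.3% of all genes. Their median LFC was 0.25. Leaving out cadmium replicate 3 gave counts of 9 and 1, and the count with cadmium was 7 without cadmium replicate 1 and 8 without mercury replicate 2. FASN, fatty acid synthase, had 355.7, 354.8, and 412.1 CPM with cadmium, 187.3, 201.7, and 195.3 CPM with mercury, and 372.4, 324.0, and 341.9 CPM without treatment. Cadmium thus lay at the non-treated level and mercury at nearly a factor of 2 below it (LFC 0.94, SE 0.11, adjusted p = 1.32e-10). MVK, mevalonate kinase, had 51.1, 51.8, and 79.8 CPM with cadmium and 30.2, 20.8, and 38.7 CPM with mercury. Its LFC of 1.02 was 0.79 without cadmium replicate 3, its highest library.

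Of 48 extracellular matrix and adhesion genes, 12 were higher with cadmium and 5 with mercury (13 and 4 without cadmium replicate 3), with a median LFC of 0.03. The shares of all genes were 9.7% and 10.3%. Fibrillar collagens were among the genes higher with cadmium. COL11A1 had 183.6, 197.3, and 185.4 CPM with cadmium, 88.1, 73.8, and 87.2 CPM with mercury, and 248.3, 269.6, and 260.0 CPM without treatment. Its cadmium values lay below all non-treated values, and its mercury values below all cadmium values (LFC 1.19, SE 0.10, adjusted p = 9.68e-15). FBN1, which forms microfibrils, and SPARC, a collagen-binding protein, were at 0.92 (adjusted p = 7e-08) and 0.80 (adjusted p = 7.9e-08). COL1A1, COL1A2, COL5A1, and COL5A2 had LFCs from 0.58 to 0.88. The integrins ITGAV and ITGB5, the laminin LAMA1, and CCN2 lay toward mercury, between -0.72 and -0.56.

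Of 25 actin, tubulin, and YAP target genes, 13 were higher with cadmium and 1 with mercury, against 9.7% and 10.3% of all genes. Their median LFC was 0.30. TPM1, a tropomyosin of actin filaments, had 331.1, 345.6, and 410.0 CPM with cadmium, 171.2, 212.6, and 232.3 CPM with mercury, and 338.2, 374.4, and 304.7 CPM without treatment (LFC 0.82, SE 0.10, adjusted p = 6.46e-10). The tubulins TUBB4B and TUBB6 were at 0.73 (adjusted p = 5.17e-08) and 0.78 (adjusted p = 8.99e-08), and the actins ACTB and ACTG1 at 0.42 and 0.47. Of the 3′ end stretches of TUBB4B, 29.3% also occur in another gene.

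**Figure D3:**
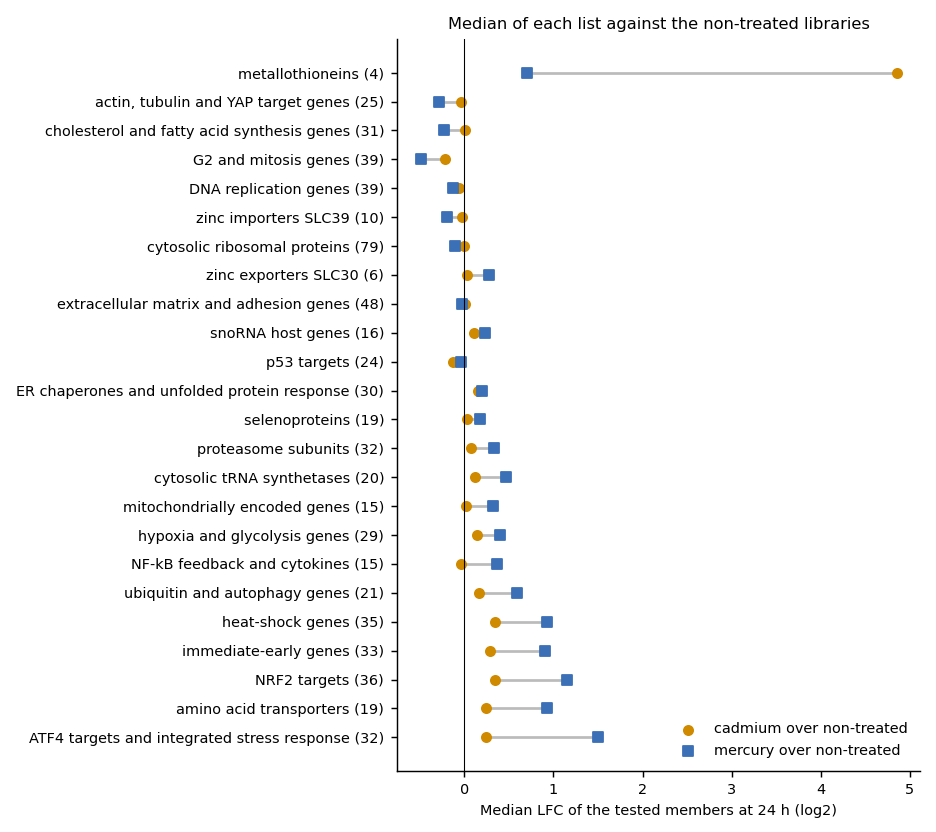
Median LFC (log2) of the tested members of 24 gene lists against the 3 non-treated libraries of 24 h, for cadmium (orange circles) and mercury (blue squares). Both comparisons share the non-treated libraries. The metallothioneins lie further from 0 with cadmium (4.85, or 4.12 with MT1B at its lower bound) than with mercury (0.71, or 0.74 without MT1B), and ATF4 targets further with mercury (1.50) than with cadmium (0.25).

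Mitochondrially encoded transcripts code for subunits of the respiratory chain and for the mitochondrial rRNAs and tRNAs. Of 15 tested, MT-ND6, the single protein-coding gene read from the opposite strand, was higher with cadmium (424.8, 511.4, and 450.9 CPM against 191.7, 229.6, and 254.4 CPM, LFC 1.04, SE 0.31, adjusted p = 0.0111), which without mercury replicate 1 was 0.93 (adjusted p = 0.0638). The other 14 did not pass, so that 1 of 15 was called, against 20% of all genes. Among the 14 were MT-CO1 at -0.53 (adjusted p = 0.0608) and MT-ND4L at -0.40 (adjusted p = 0.106). Of the 15, 13 had a negative LFC, and the median of the 15 was -0.31. In the fit of the 6 libraries alone, 7 of the 15 were higher with mercury and 2 with cadmium, MT-CO1 at -0.54 (adjusted p = 0.000851). Mitochondrial transcripts made up 5.80%, 6.80%, and 5.18% of counts in the cadmium libraries and 7.13%, 7.23%, and 7.10% in the mercury libraries, and their part in other results was not tested. Of the 3′ end stretches of MT-CO1, 50.7% also occur in another gene, and 12.8% for MT-ND6.

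Of 79 ribosomal proteins, 8 were higher with cadmium and 1 with mercury (median LFC 0.06), against 9.7% and 10.3% of all genes. These counts were 2 and 0 without cadmium replicate 3. The count with cadmium was also 3 and 5 without mercury replicates 1 and 2. RPL28, RPL35, and RPL7A had the lowest p-values, at 0.40, 0.39, and 0.31 (adjusted p = 0.00177, 0.00155, and 0.0014). RPL35 was at 0.24 (adjusted p = 0.0906) without cadmium replicate 3. Of the 3′ end stretches of RPL7A, 41.9% also occur in another gene. Of 16 host genes of small nucleolar RNAs, 2 were higher with cadmium (1 without cadmium replicate 3 or mercury replicate 2) and 3 with mercury (median LFC -0.02). The shares of all genes were again 9.7% and 10.3%. ZFAS1 and SNHG7 lay toward mercury, at -0.43 (adjusted p = 8.61e-06) and -0.40 (adjusted p = 0.00589), and SNHG8 toward cadmium, at 0.53 (adjusted p = 0.00356).

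Several of the largest differences fell outside the lists. CTDSP1, a phosphatase of the tail of RNA polymerase, had 47.7, 56.1, and 69.7 CPM with cadmium, 8.18, 5.58, and 17.5 CPM with mercury, and 96.3, 91.3, and 73.3 CPM without treatment. All 3 mercury values lay below all others (LFC 2.47, SE 0.21, adjusted p = 1.06e-14). CPA4, a carboxypeptidase, had 71.6, 58.7, and 58.2 CPM with cadmium and 12.0, 17.4, and 11.2 CPM with mercury, against 53.8, 58.1, and 72.7 CPM without treatment (LFC 2.22, SE 0.25, adjusted p = 8.91e-11). Its cadmium values lay within or close to the range of non-treated cells. PLPP3, a lipid phosphatase, SCN3A, a sodium channel, KLHL13, a ubiquitin ligase adaptor, and NUDT16L1 had LFCs of 1.59, 1.47, 1.46, and 1.50, and CREB3L1, a membrane-bound transcription factor, 1.74. Each of these 7 genes had a higher mean in non-treated than in mercury-treated cells.

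Toward mercury, UNC5B, a netrin receptor, had 7.05, 6.01, and 5.03 CPM with cadmium, 44.7, 36.6, and 45.6 CPM with mercury, and 9.01, 4.61, and 8.94 CPM without treatment. Cadmium was at the non-treated level and mercury well above it (LFC -2.78, SE 0.26, adjusted p = 3.79e-13). HTRA3, a secreted serine protease, had 4.55, 6.87, and 5.03 CPM with cadmium and 22.7, 29.1, and 25.8 CPM with mercury, and 0 counts in all 3 non-treated libraries. Against the floor of 3 counts in a non-treated library, it was at least 5.94-fold higher with cadmium and at least 28.0-fold higher with mercury, and the metals differed by an LFC of -2.23 (SE 0.42, adjusted p = 4.73e-05). ESM1, a secreted endothelial proteoglycan, had 15.5, 13.2, and 19.4 CPM with cadmium and 58.5, 50.5, and 53.2 CPM with mercury (LFC -1.77, SE 0.19, adjusted p = 2.72e-11).

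Some genes were at the floor, at most 3 counts in each library, with a single metal. With mercury at the floor, the antisense gene SLC9A3-AS1 had 4.32, 6.30, and 5.39 CPM with cadmium and PTPRQ, a receptor phosphatase, 4.32, 5.15, and 5.03 CPM, at least 5.38-fold and 4.88-fold higher (adjusted p = 3.18e-05 and 3.25e-05). Non-treated cells had 14.4, 7.38, and 9.23 CPM of the former and 3.86, 6.46, and 3.46 CPM of the latter. With cadmium at the floor, ENSG00000229261 had 4.09, 6.20, and 7.60 CPM with mercury, DGKG, a diacylglycerol kinase, 4.72, 7.44, and 3.30 CPM, and EMC1-AS1 1.57, 4.65, and 5.29 CPM, at least 5.53-fold, 4.78-fold, and 3.56-fold higher (adjusted p = 0.000136, 0.000532, and 0.00433).

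Among markers of other cell types, MAP2 was higher with mercury (LFC -2.41, adjusted p = 0.00522), KRT18 higher with mercury (LFC -0.49), and KRT8 higher with cadmium (LFC 1.13), whereas the defining markers RBFOX3 of neurons and KRT5 of epithelia had 0 counts in all 9 libraries. Neuron markers summed to 12.3 to 20.0 CPM with cadmium and 18.8 to 26.3 CPM with mercury.

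The direct comparison was also made at the earlier time points. Differentially expressed genes numbered 10 higher with cadmium and 20 higher with mercury after 1.5 h. After 3 h there were 10 and 33, after 6 h 39 and 41, and after 12 h 35 and 37, all far fewer than the 202 and 338 of 24 h. Between 12 h and 24 h, the difference itself changed for 172 genes at an adjusted p under 0.05, toward cadmium for 42 (0.34%) and toward mercury for 130 (1.05%). These were 17 and 94 without cadmium replicate 3. The medians of the lists of ATF4 targets, NRF2 targets, and heat-shock genes were -0.70, -0.37, and -0.15 at 12 h, against -1.15, -0.82, and -0.57 at 24 h.

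**Figure D4:**
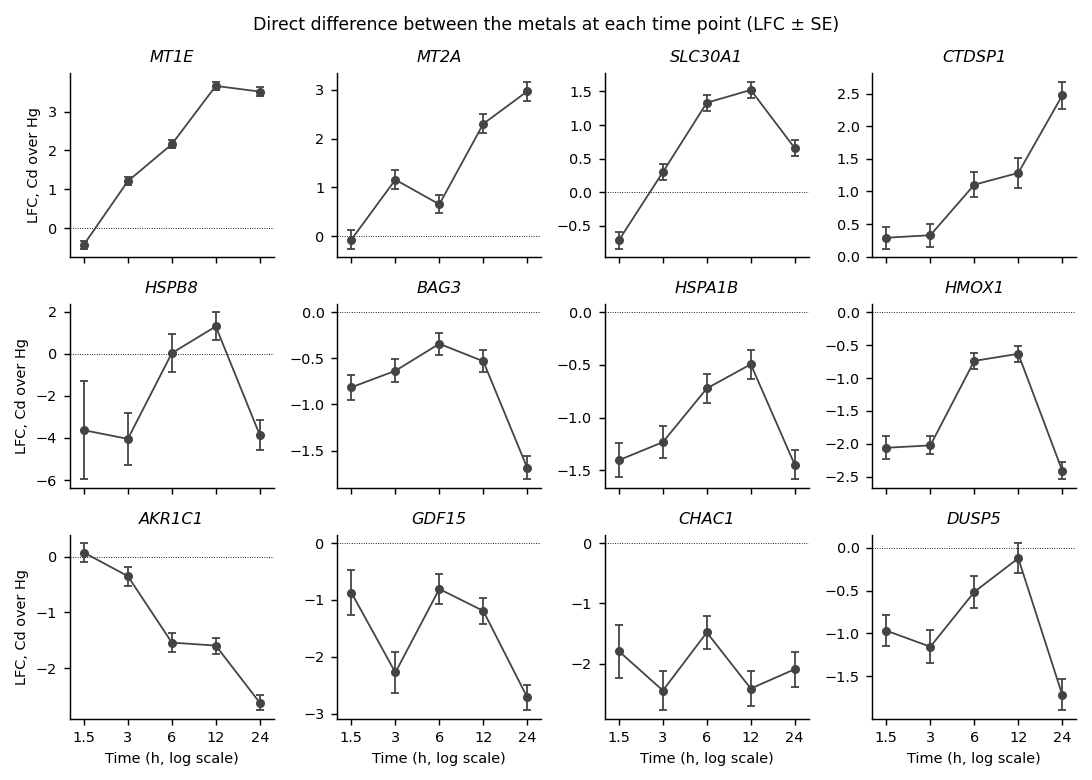
LFC of cadmium over mercury (log2, mean fit ± SE) over time (hours, log scale) for 12 genes, each panel with its own vertical axis and a dotted line at 0. The metallothionein MT1E passes from -0.43 at 1.5 h to 3.52 at 24 h, whereas HMOX1, BAG3, and DUSP5 are at least as far below 0 at 24 h as at any earlier time point.

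HMOX1 had the lowest p-value for this change. Its LFC was -2.06 and -2.03 in the first 3 h, then -0.74 after 6 h and -0.63 after 12 h, and -2.41 after 24 h, so that mercury led early and late and the metals came closest in between. The change from 12 h to 24 h was -1.78 (SE 0.18, adjusted p = 1.77e-10). HSPA1B and BAG3 also lay toward mercury most at the start and end. The LFC of HSPA1B shrank from -1.40 after 1.5 h to -0.49 after 12 h, before -1.45 at 24 h. That of BAG3 shrank from -0.81 after 1.5 h to -0.34 after 6 h, and was -0.53 after 12 h and -1.69 at 24 h. SLC30A1 lay toward mercury after 1.5 h (-0.71) and toward cadmium after 6 h (1.33) and 12 h (1.52), and its lead with cadmium then shrank to 0.66 (change -0.86, adjusted p = 0.0026). The LFC of MT1E grew from 1.21 at 3 h through 2.16 after 6 h to 3.66 after 12 h, near its final 3.52, and the change after 12 h did not pass (adjusted p = 0.72). CHAC1 was between -2.44 and -1.48 at all time points. CTDSP1 passed from 1.28 at 12 h to 2.47 at 24 h, a change toward cadmium of 1.19 (adjusted p = 0.039) that did not pass without cadmium replicate 3 or any of 5 other libraries left out in turn.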

How the data were processed

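RNA of 1321N1 cells was sequenced by QuantSeq 3′ mRNA sequencing. Per the labels and the study's methods, the authors aligned reads to GRCh38 with STAR 2.7.9a and assigned them by strand to exons (GENCODE basic annotation) with GenomicAlignments, whose Union mode discards reads of overlapping genes. The deposited table has raw counts of 62703 genes, and its 92 spike-in rows sum to 0.

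Counts of all 60 libraries (20 groups) were filtered with filterByExpr, leaving 12341 genes, normalized by TMM (factors of the 6 libraries 0.958 to 1.00), and fitted with edgeR 4.0.16 (glmQLFit, no replicate block) in R 4.3.3. Cadmium was contrasted with mercury by the quasi-likelihood F test with Benjamini-Hochberg adjustment over all genes tested. The SE is the LFC divided by the square root of F. The change from 12 h to 24 h is the difference of the contrasts at these times. Counts of 11384 genes were also simulated for the 24 h libraries alone, with no outlying library. There, 65.9% of genes changed by a fold of 2 and 95.7% of those changed by a fold of 4 were called. Of 157 calls, 8 were false. The counts were drawn with edgeR's own fitted dispersions, with 91 and 93 genes changed by these folds, whereas 20% of all genes were called in the data. These shares therefore do not measure errors among the real calls. The fit of all 60 libraries was not simulated.

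Named genes were the tested metallothioneins, SLC30A1, SLC39A10, and SLC39A14; per list, the 3 differentially expressed members with the largest LFC, filled by lowest p; the 12 largest LFCs in each direction at a mean of at least 50 counts; up to 3 genes per direction at the floor; and the 5 largest changes from 12 h to 24 h in each direction. Other genes were named after their values were seen, and some are not reported here. Members, lists, and rules were chosen with earlier results of these data known.

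Same-numbered cadmium and mercury libraries did not deviate together (correlations of 0.046, 0.013, and 0.076), so that samples were not paired by number. Alternatives included DESeq2 1.42.0 (also with ashr 2.2.63 shrinkage), RLE size factors, no filter, a minimum count of 30, a replicate block, fewer libraries, glmTreat, and leaving out each library. Promoters came from RefSeq (GRCh38.p14), where 9445 of 12341 tested genes matched by symbol, with 1 promoter kept per symbol.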

Additional observations from a re-analysis of the deposited data

Results flagged for a closer look

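For 26 of the named genes, the difference between the metals at 24 h differed from that at 12 h by the test of that change itself in edgeR (adjusted p under 0.05 over all genes). Of these, 20 changed toward mercury, and 6 toward cadmium. With each of the 12 libraries of both times left out in turn, 15 of the 26 passed throughout. The call ended at least once for DNAJB9, CDKN1A, TNFRSF10B, ZFAS1, GLRX, NOTCH1, CTDSP1, CAMK2N2, SSBP4, CHST14, and TSPAN4, most often for TSPAN4, in 9 of the 12 cases. Without cadmium replicate 3 of 24 h, 8 of the 26 ended, and without cadmium replicate 3 of 12 h, 7. HSPB8, a small chaperone, changed most, by -5.16 on the log2 scale (SE 0.99), from an LFC of 1.30 at 12 h to -3.86 at 24 h. The 12 h difference itself did not pass (SE 0.67, adjusted p = 0.375). Its counts with cadmium at 24 h were 8, 13, and 4, and ashr shrinkage gave a 24 h LFC of -0.75. The other chaperone genes BAG3 and HSPA1B changed by -1.16 and -0.95, and the autophagy receptor SQSTM1 by -0.74. Among NRF2 targets and redox genes, HMOX1 changed by -1.78, AKR1C1 by -1.02, and GLRX by -1.32.

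Of genes of the integrated stress response, GDF15 changed by -1.52, TRIB3 by -1.05, and the amino acid transporter SLC7A5 by -0.93. The endoplasmic reticulum genes DNAJB9 and HERPUD1 changed by -1.32 and -0.89, and CDKN1A, PMAIP1, and TNFRSF10B by -0.93, -0.80, and -0.79. DUSP5 changed by -1.60, ESM1 by -1.34, NOTCH1 by -1.33, ZFAS1 by -0.41, and the zinc exporter SLC30A1, which stayed higher with cadmium, by -0.86.

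Toward cadmium, SLC9A3-AS1 changed by 3.01 on low counts, CAMK2N2 by 1.25, CTDSP1 by 1.19, SSBP4 by 1.16, CHST14 by 1.15, and TSPAN4 by 1.14. At 12 h, the LFCs of CAMK2N2, SSBP4, and TSPAN4 were 0.03, 0.20, and -0.02, and at 24 h 1.28, 1.37, and 1.13. With 3 libraries in each group, no test for single outlying libraries was made.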

How the results depend on the processing

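All 540 differentially expressed genes kept their direction when any of the 6 libraries was left out, and under DESeq2, ashr shrinkage, and the replicate block. Their choice from these same libraries favours this. With 1 library left out, 407 to 465 of them still had an adjusted p under 0.05. Leaving out each library gave 722 to 1185 genes higher with cadmium and 942 to 1200 higher with mercury at an adjusted p under 0.05, 141 to 224 and 273 to 379 differentially expressed genes, and 17 to 60 and 87 to 155 genes whose difference changed from 12 h to 24 h. The lowest counts came without cadmium replicate 3, apart from the 87, which came without mercury replicate 1 of 24 h or of 12 h. Counts toward cadmium also fell by more than 1.5 times, to 25 and 27 without mercury 24 h replicates 1 and 2, to 19 and 17 without cadmium 12 h replicates 2 and 3, and to 26 and 20 without mercury 12 h replicates 1 and 3. With the 6 compared libraries alone, 780 genes were higher with cadmium and 131 differentially expressed. With ashr shrinkage, 64 and 147 were differentially expressed, and with glmTreat, which tests for an LFC beyond 1, 12 and 35, as that test asks for more by construction. The change toward cadmium was found for 25 genes in the fit of 12 libraries.

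The replicate block gave 1191 and 1260 genes at an adjusted p under 0.05 and 197 and 331 differentially expressed genes, so that it moved none of these by over 1.5 times. Of the counts by list, it moved amino acid transporters higher with cadmium from 0 to 1. The 12 of 21 ubiquitin and autophagy genes fell to 8, and the 18 immediate-early genes to 12, without cadmium replicate 3, and in the fit of the 6 libraries 7 mitochondrially encoded genes were higher with mercury in place of 0. At these depths, genes near 3 counts cannot be told from absent ones.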

Other observations

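Some gene families outside the lists were noticed after their values were seen and are given as values. Of 5 linker histone genes tested, 4 were higher with cadmium, 3 of them differentially expressed, against 9.7% and 1.64% of all genes. Cadmium replicate 3 was the highest cadmium library for each of these 4, and values without it are not given. H1-2 had 140.9, 117.1, and 222.4 CPM with cadmium, 62.9, 66.3, and 69.1 CPM with mercury, and 181.3, 178.9, and 129.8 CPM without treatment, an LFC of 1.27 (adjusted p = 7.63e-07) in edgeR. H1-4 and H1-5 had LFCs of 1.26 and 1.15, and H1-10 0.55. For H1-5, the lowest cadmium value (8.86 CPM) lay below the highest mercury value (9.30 CPM). Of 20 core histone genes, 2 passed, against 20% of all genes. These were H2AC20 at 1.69 and H4C3 at 0.63, both higher with cadmium and both highest in cadmium replicate 3. These libraries start from polyadenylated ends, which most replication-dependent histone mRNAs lack.

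The small MAF proteins, which pair with NRF2, were all higher with mercury (MAFG is also among the NRF2 targets), MAFF at -1.54, MAFG at -1.44, and MAFK at -0.92. MAFG had 160.2, 179.8, and 118.9 CPM with cadmium, 450.1, 409.7, and 393.8 CPM with mercury, and 130.6, 85.5, and 127.2 CPM without treatment. Of 74 genes of mitochondrial ribosomal proteins, 18 were higher with cadmium and 2 with mercury, against 9.7% and 10.3% of all genes, with a median LFC of 0.13. MRPL20 had 318.9, 317.2, and 330.9 CPM with cadmium and 235.4, 224.4, and 234.3 CPM with mercury (LFC 0.48, adjusted p = 4.91e-06), whereas MRPL18 and MRPS25 lay toward mercury, at -0.75 and -1.11. TLR4 and LY96, the receptor for lipopolysaccharide and its co-receptor, were both higher with mercury, at -1.75 (adjusted p = 0.000627) and -1.66 (adjusted p = 0.0107), from 2.27, 4.87, and 2.87 and 6.36, 3.15, and 2.52 CPM with cadmium to 9.44, 14.3, and 9.91 and 13.8, 12.7, and 12.9 CPM with mercury.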
